A study of Homo sapiens with 12 samples.

Results

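The genes described here are 10 components and targets of bone morphogenetic protein (BMP) signalling: the target genes ID1, ID2 and ID3, the signal transducers SMAD1, SMAD5 and SMAD4, the inhibitory SMAD6 and SMAD7, and the receptors BMPR1A and BMPR2. They were taken from the deposited expression tables by gene symbol, out of 12360 genes listed in either table. The 23132/87 table lists all 10 of them among its 11070 genes, and the SW48 table lists 9 among its 11554, SMAD6 being the one not listed. The set was put together with the responses of these genes in these libraries already known, so their changes are given as descriptions. Where members past a threshold of a fit over the whole table are counted, the count stands beside the share of all genes and is not read as a test. Tests are read only for the other genes of the pathway. Their lists were written from knowledge of the pathway, but with earlier results of these data known, which limits those tests too.

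The study exposed established human adenocarcinoma cell lines to myricone C, a neolignan from Myristica fragrans (nutmeg). There were 4 groups of 3 libraries each: SW48 colorectal cells with 10 µM myricone C for 48 h (SW48 MyrC), SW48 cells with the vehicle, 0.1% DMSO, for 48 h (SW48 CON), 23132/87 gastric cells with 10 µM myricone C for 48 h (23132/87 MyrC) and 23132/87 cells with the same vehicle for 48 h (23132/87 CON). Both lines are labelled wild type (WT), and all libraries were made from total RNA with a stranded mRNA kit. With 1 line per tissue and 1 dose at 1 time, line and tissue cannot be told apart.

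BMPs are secreted dimers that bind a pair of type I receptors, such as BMPR1A, and a pair of type II receptors, such as BMPR2. The type II receptor phosphorylates the type I receptor, which phosphorylates SMAD1, SMAD5 and SMAD9; these join SMAD4 and enter the nucleus. ID1, ID2 and ID3 are immediate targets there and encode helix-loop-helix proteins without a DNA-binding region, which hold E proteins such as TCF3 and TCF12 in inactive dimers. SMAD6 and SMAD7 are induced by the same signal and shut it down. In the gut the pathway restrains stem cells and promotes differentiation, and germline mutations of SMAD4 or BMPR1A cause juvenile polyposis.

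The deposited values are the authors' normalised expression signal, linear, with no value at or under 1; what they are scaled to and how deeply each library was sequenced is not stated in the material used here. The listed values of a library summed to between 464037 and 536594. One library stood apart: in replicate 1 of SW48 MyrC, 7SL, 7SK and small nuclear RNAs took 5.26% of the listed signal, against 0.0490% to 0.204% in the other SW48 libraries, and it lay closest to the vehicle libraries on the leading principal component of SW48 (14.4, against 36.5 and 29.1 for the other MyrC libraries and −24.6, −30.2 and −25.2 for CON). Its part in the results was not tested, but values without it are given below. All 8 epithelial markers were listed in both lines. Their summed signal was 2897 to 4088 in SW48 MyrC and 1068 to 1854 in SW48 CON, and 3252 to 4326 in 23132/87 MyrC and 7969 to 10647 in 23132/87 CON. The intestinal markers CDX2 and CDH17 were listed in both lines. Of 8 gastric markers only TFF1 was listed, and only in 23132/87 (135 to 173 in MyrC, 219 to 346 in CON). Of 22 leukocyte, fibroblast and endothelial markers SW48 listed 0, and 23132/87 listed CD68 (12.9 to 14.8 in MyrC, 3.95 to 6.48 in CON) and COL1A1 (8.62 to 11.5 in MyrC, 9.39 to 13.5 in CON), with the defining PTPRC, PDGFRA and PECAM1 not listed. The part of these shifts in the changes below was not tested.

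With all libraries and the values as deposited, the 3 ID genes had the lowest log2 changes of all members in both lines. Their promoters are shown for that reason, although the ID1 groups overlapped in 23132/87. ID1 did not keep this rank in every setting. In 23132/87 it had −0.28 against −0.47 for SMAD6 under quantile normalisation, and −0.14 against −0.32 without MyrC 1. In SW48 without MyrC 1 it had −0.77 against −0.97 for BMPR2. Each promoter window runs from 250 bases before to 50 bases after the RefSeq start (GRCh38.p14), 5′ to 3′ on the gene's strand. Of 7 motifs searched on either strand, capitals mark 4: GGCGCC (the GC-rich element bound by BMP SMADs), CAGAC (the SMAD-binding core), GTCTAGAC (the palindromic SMAD-binding element) and CCAAT (the box read by NF-Y). CAGAC and GTCTAGAC share the letters AGAC, but no capitalised match overlaps another. The other motifs searched, not capitalised, were CANNTG (the E-box), GGGCGG (the GC box) and TGACG (the core read by ATF and CREB factors). The windows are chr20:31605039-31605338 (plus strand) for ID1, chr2:8681806-8682105 (plus strand) for ID2 and chr1:23559452-23559751 (minus strand) for ID3.
ID1: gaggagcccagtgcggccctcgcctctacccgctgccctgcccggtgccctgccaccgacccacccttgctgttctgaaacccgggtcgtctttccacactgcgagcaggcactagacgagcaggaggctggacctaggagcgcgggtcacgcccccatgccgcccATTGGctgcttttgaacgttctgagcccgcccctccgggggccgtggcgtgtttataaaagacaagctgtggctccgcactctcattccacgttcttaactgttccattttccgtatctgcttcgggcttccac
ID2: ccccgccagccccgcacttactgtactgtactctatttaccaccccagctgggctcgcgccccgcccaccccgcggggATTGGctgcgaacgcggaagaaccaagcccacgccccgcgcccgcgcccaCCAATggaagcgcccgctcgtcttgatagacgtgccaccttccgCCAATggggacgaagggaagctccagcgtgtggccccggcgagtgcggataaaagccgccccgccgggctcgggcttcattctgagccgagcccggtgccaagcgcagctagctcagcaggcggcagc
ID3: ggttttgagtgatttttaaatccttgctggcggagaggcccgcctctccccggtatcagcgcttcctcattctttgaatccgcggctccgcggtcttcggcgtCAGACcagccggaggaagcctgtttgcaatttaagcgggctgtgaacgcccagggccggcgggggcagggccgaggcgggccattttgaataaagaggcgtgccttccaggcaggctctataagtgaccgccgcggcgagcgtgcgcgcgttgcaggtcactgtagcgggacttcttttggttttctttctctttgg
The ID1 window holds 1 CCAAT (at −84 from the start, as its reverse complement) and the ID2 window holds 3 (at −172, −122 and −78). The ID3 window holds none and has 1 CAGAC at −147. None of the 3 windows holds GGCGCC or GTCTAGAC. GGGCGG is in the ID1 window (2 matches) and the ID2 window (2 matches), CANNTG is in the ID2 window (1 match), and TGACG is in the ID3 window (1 match at −150, overlapping its CAGAC). Of 35116 RefSeq promoters of the same length, 34.6% hold CCAAT, 3.26% hold it at least 3 times, 45.3% hold CAGAC, 19.2% hold GGCGCC, 68.7% hold CANNTG, 45.0% hold GGGCGG and 24.6% hold TGACG. These are matches of letters in a short window and say nothing on binding, which was not measured. Distal elements were not searched.

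**Figure D1:**
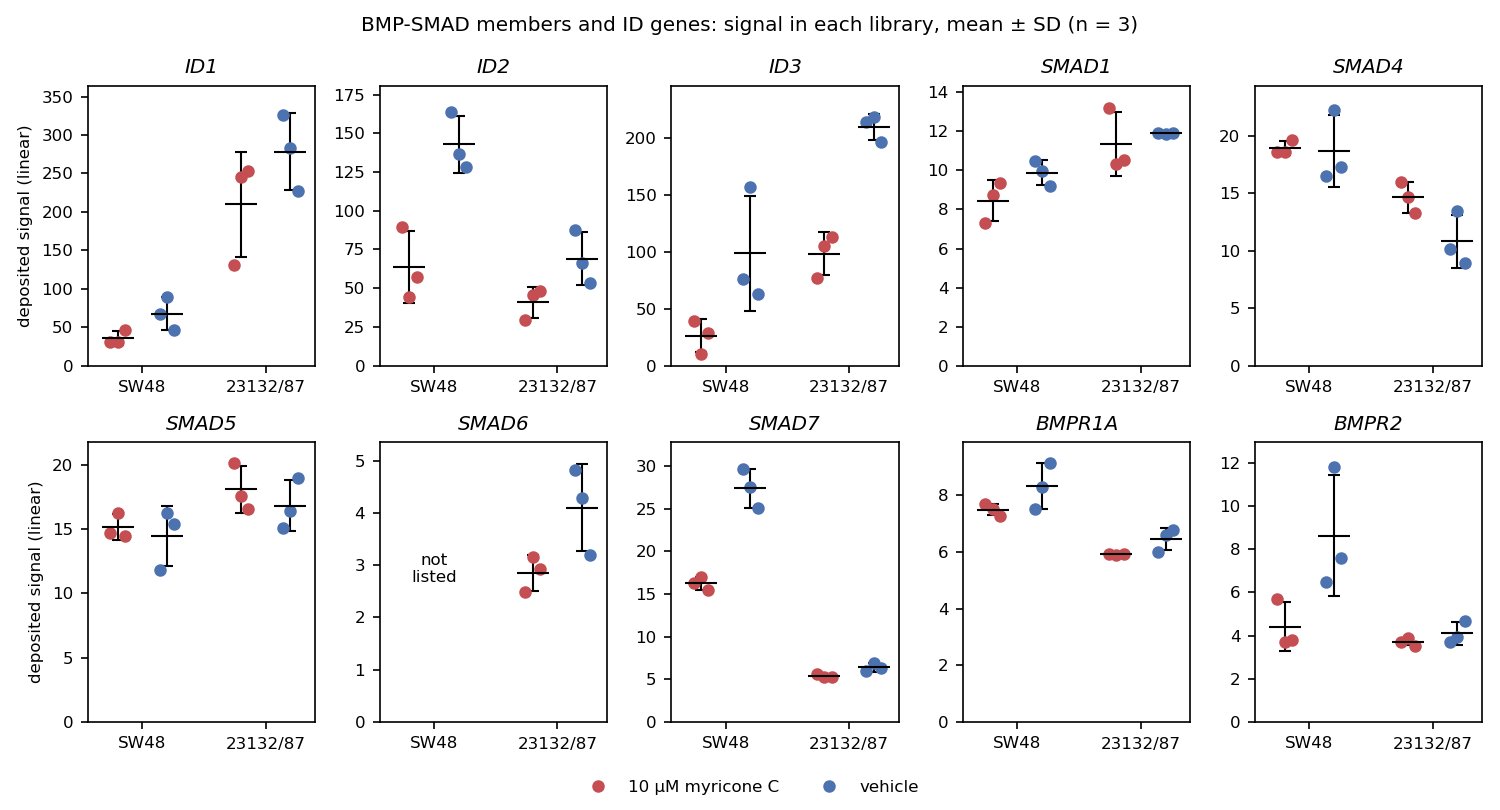
Deposited signal (linear axis from 0) of each of the 10 genes in all 12 libraries, with SW48 left and 23132/87 right and myricone C left of vehicle; points are libraries and bars are mean ± SD (n = 3). The MyrC points of ID2 and ID3 lie below all CON points of the same line, while those of SMAD5 overlap the CON points.

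ID3, which dimerises with E proteins like its paralogues, had the lowest values relative to vehicle in both lines. Its signal was 39.6, 10.5 and 28.8 in SW48 MyrC libraries, against 76.3, 157 and 63.5 in SW48 CON libraries. The groups did not overlap, and the vehicle libraries spread widely. The means were 26.3 ± 14.7 and 98.9 ± 50.7 (SD, n = 3 each), so that MyrC stood at 26.6% of CON, a log2 change of −1.94 ± 0.42 (SE, on log2 of the value plus 1, as for every log2 change here). In 23132/87 the signal was 77.5, 105 and 113 in MyrC, against 214, 219 and 197 in CON. Here too every MyrC library lay below every CON library, with narrow groups of 98.6 ± 18.8 and 210.0 ± 11.7, or 47.0% of vehicle (log2 change −1.10 ± 0.14). These are bulk libraries, in which fewer cells expressing a gene and less RNA per cell cannot be told apart. ID3 lies at chr1:23557918-23559794 on the minus strand (GENCODE 29, GRCh38, as for all gene positions here).

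ID2, the ID protein that can also bind the retinoblastoma protein, followed the same order of groups. In SW48 it had 89.4, 44.3 and 57.3 in MyrC and 164, 137 and 128 in CON. The highest MyrC library was replicate 1, the library that stood apart, and it was still below the lowest CON library. The means were 63.7 ± 23.2 and 143 ± 18.4, or 44.6% of vehicle, with a log2 change of −1.21 ± 0.21. In 23132/87 the signal was 29.2, 45.6 and 47.9 in MyrC and 87.3, 66.5 and 53.2 in CON, again without overlap, though the closest libraries of the groups (47.9 and 53.2) were near each other. This was 59.3% of vehicle, a log2 change of −0.74 ± 0.21. ID2 lies at chr2:8678845-8684453 on the plus strand. Its antisense neighbour ID2-AS1 was listed in SW48 at 1.27 to 2.04 in MyrC and 1.33 to 1.95 in CON; whether counting used strand is not given in the sources used here, so reads of the pair may be mixed, although ID2-AS1 itself had overlapping groups.

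ID1, the member most often used as a readout of BMP activity, was lower in SW48 and less clearly so in 23132/87. In SW48 it had 30.2, 31.2 and 46.3 in MyrC and 66.7, 89.7 and 46.6 in CON. The groups met almost at a point, the highest MyrC library (46.3) lying just under the lowest CON library (46.6). The mean was 53.1% of vehicle (log2 change −0.87 ± 0.22). In 23132/87 it had 130.4, 245 and 253 in MyrC and 326, 283 and 227 in CON, so the groups overlapped and the low mean of MyrC (209.7 ± 68.8, against 278 ± 49.6 in CON) rested on replicate 1. The log2 change there was −0.45 ± 0.24 with all libraries and −0.14 without that replicate. ID1 is a short gene at chr20:31605283-31606515 on the plus strand.

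Leaving out the SW48 library that stood apart gave log2 changes of −2.31 for ID3, −1.48 for ID2 and −0.77 for ID1 in SW48. ID3 and ID2 were thus further below vehicle without it and ID1 was less so. Across the leave-outs of any 1 library, ID3 stayed between −2.31 and −1.41 in SW48 and between −1.21 and −0.94 in 23132/87. For ID2 the ranges were −1.48 to −0.98 in SW48 and −0.91 to −0.52 in 23132/87. ID1 ranged from −1.11 to −0.65 in SW48 and from −0.62 to −0.14 in 23132/87, the widest relative range of the 3 genes.

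The receptor-phosphorylated SMADs among the members, SMAD1 and SMAD5, had overlapping groups in both lines. SMAD1, a BMP receptor substrate, had 7.30, 8.72 and 9.33 in SW48 MyrC and 10.5, 9.98 and 9.23 in SW48 CON, which overlap (log2 change −0.21 ± 0.14). In 23132/87 it had 13.2, 10.3 and 10.5 in MyrC, around the nearly equal CON values of 11.9 in each library (−0.07 ± 0.12). SMAD1 (chr4:145481194-145558079, plus strand) overlaps SMAD1-AS1 on the other strand, which was listed at 2.91 to 7.07 in SW48 MyrC and 5.12 to 7.11 in SW48 CON, and at 6.21 to 10.3 in 23132/87 MyrC and 5.07 to 10.8 in 23132/87 CON, and without strand the reads of this pair could not be told apart. SMAD5, the second BMP receptor substrate among the members (chr5:136132845-136188747, plus strand), had 14.7, 16.3 and 14.5 in SW48 MyrC and 11.8, 16.2 and 15.4 in SW48 CON (0.07 ± 0.14). Its values were 20.1, 17.5 and 16.6 in 23132/87 MyrC and 15.1, 16.4 and 19.0 in 23132/87 CON (0.10 ± 0.12), overlapping in both lines.

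SMAD4, the partner shared by the BMP and TGF-β branches (chr18:51028394-51085045, plus strand), had the largest positive change among the members. It had 16.0, 14.6 and 13.3 in 23132/87 MyrC and 10.1, 13.4 and 8.94 in 23132/87 CON. The means were 14.6 ± 1.35 and 10.8 ± 2.32, or 135% of vehicle (log2 change 0.42 ± 0.15), but the lowest MyrC library was just under the highest CON library. In SW48 it had 18.6, 18.6 and 19.7 in MyrC and 16.5, 22.3 and 17.2 in CON, with no separation (0.03 ± 0.14).

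The inhibitory SMADs were lower where they could be compared. SMAD7, which blocks receptors of both branches and recruits SMURF ubiquitin ligases, had 16.3, 17.0 and 15.4 in SW48 MyrC and 29.6, 27.5 and 25.0 in SW48 CON. The groups were tight and far apart: 16.2 ± 0.770 and 27.4 ± 2.31, or 59.2% of vehicle (log2 change −0.72 ± 0.12, and −0.72 without the library that stood apart). In 23132/87 it had 5.65, 5.26 and 5.29 in MyrC and 5.95, 6.93 and 6.30 in CON. These groups did not overlap either, but the gap was small, and MyrC stood at 84.5% of vehicle (−0.21 ± 0.12). SMAD7 lies at chr18:48919853-48952052 on the minus strand.

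SMAD6, which preferentially blocks the BMP branch, was listed only in 23132/87, at 2.48, 3.16 and 2.93 in MyrC and 4.82, 4.27 and 3.19 in CON. The groups touched without overlapping (3.16 and 3.19), and the means of 2.86 ± 0.344 and 4.09 ± 0.831 put MyrC at 69.8% of vehicle (log2 change −0.39 ± 0.15). SMAD6 lies at chr15:66702228-66782848 on the plus strand. Its promoter, shown with the same capitals because it is the 1 member window with the palindrome, is chr15:66701986-66702285 (plus strand).
SMAD6: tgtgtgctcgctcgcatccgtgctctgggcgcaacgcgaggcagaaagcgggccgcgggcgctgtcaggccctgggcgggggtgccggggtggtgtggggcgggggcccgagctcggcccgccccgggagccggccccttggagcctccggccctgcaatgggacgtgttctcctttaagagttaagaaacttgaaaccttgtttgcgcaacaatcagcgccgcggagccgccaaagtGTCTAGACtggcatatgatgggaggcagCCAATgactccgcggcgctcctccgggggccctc
GTCTAGAC stands at −12 from the start and CCAAT at +17, and the window also holds GGGCGG 3 times and CANNTG 1 time. The palindrome is in 71 of the 35116 promoters, 0.202%. SMAD7, the other inhibitory SMAD, has 3 start sites in the table, whose windows hold CAGAC 2, 1 and 0 times and neither GGCGCC nor GTCTAGAC. No conclusion on regulation in these cells can be drawn from the letters.

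The receptor members were BMPR2 and BMPR1A. BMPR2, the type II receptor (chr2:202376936-202567751, plus strand), had 5.71, 3.72 and 3.81 in SW48 MyrC and 6.47, 11.8 and 7.58 in SW48 CON. No MyrC library reached the lowest CON library, and the highest MyrC value was again that of replicate 1. The means were 4.42 ± 1.12 and 8.62 ± 2.81, or 51.2% of vehicle (log2 change −0.81 ± 0.21, and −0.97 without replicate 1 of MyrC). In 23132/87 BMPR2 had 3.72, 3.89 and 3.54 in MyrC and 3.68, 3.91 and 4.69 in CON, which overlap (−0.11 ± 0.13). BMPR1A, the type I receptor (chr10:86756601-86932838, plus strand), had 7.68, 7.53 and 7.28 in SW48 MyrC and 7.53, 8.29 and 9.16 in SW48 CON (−0.13 ± 0.13). In 23132/87 it had 5.93, 5.91 and 5.94 in MyrC and 6.01, 6.60 and 6.77 in CON, groups that did not overlap but lay close together (−0.11 ± 0.11). BMPR1A has annotated pseudogene copies (BMPR1AP1 and BMPR1AP2), so its signal may share reads with them.

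**Figure D2:**
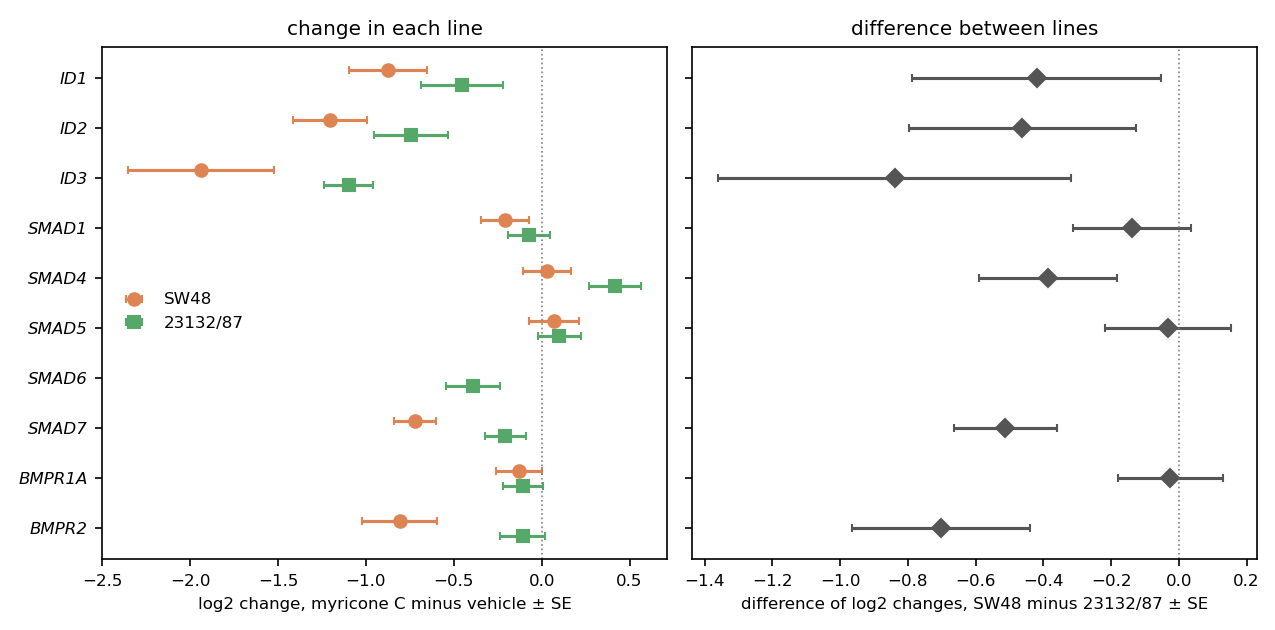
Log2 change of each gene, myricone C minus vehicle, ± SE in SW48 (circles) and 23132/87 (squares), and at right the difference of these changes, SW48 minus 23132/87, ± SE (diamonds); the dotted line is 0. The ID genes lie at −1.94 to −0.87 in SW48 and −1.10 to −0.45 in 23132/87, and SMAD5 lies near 0 in both.

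As a count beside that of all listed genes, 5 of the 9 members in SW48 were past the threshold of a limma fit over the whole table (Benjamini-Hochberg adjusted p under 0.05), all lower: ID1, ID2, ID3, SMAD7 and BMPR2. Of all SW48 genes 29.3% passed, 10.1% higher and 19.2% lower; after quantile normalisation the split was 1515 higher and 1765 lower, in place of 1170 and 2213. In 23132/87, 3 of 10 members passed, ID2 and ID3 lower and SMAD4 higher, where 46.5% of all genes passed, 23.3% higher and 23.2% lower. Under quantile normalisation or median-centred scaling 3 members passed, all lower, and SMAD4 did not. The members were chosen with these contrasts in view, so nothing is read from these counts. Without replicate 1 of 23132/87 CON 1 member passed, ID3, SMAD4 did not pass in 4 of 6 fits that left out 1 library, and BMPR2 did not pass without replicate 2 or 3 of SW48 MyrC or replicate 2 of SW48 CON. Groups did not overlap for 5 members in SW48, all lower, where 45.3% of all genes had no overlap (28.4% lower), and for 5 in 23132/87, all lower, where the share was 56.8% (27.9% lower). The median log2 change was −0.72 over the 9 members and −0.08 over all genes in SW48, and −0.16 over the 10 members and 0.01 over all genes in 23132/87.

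**Figure D3:**
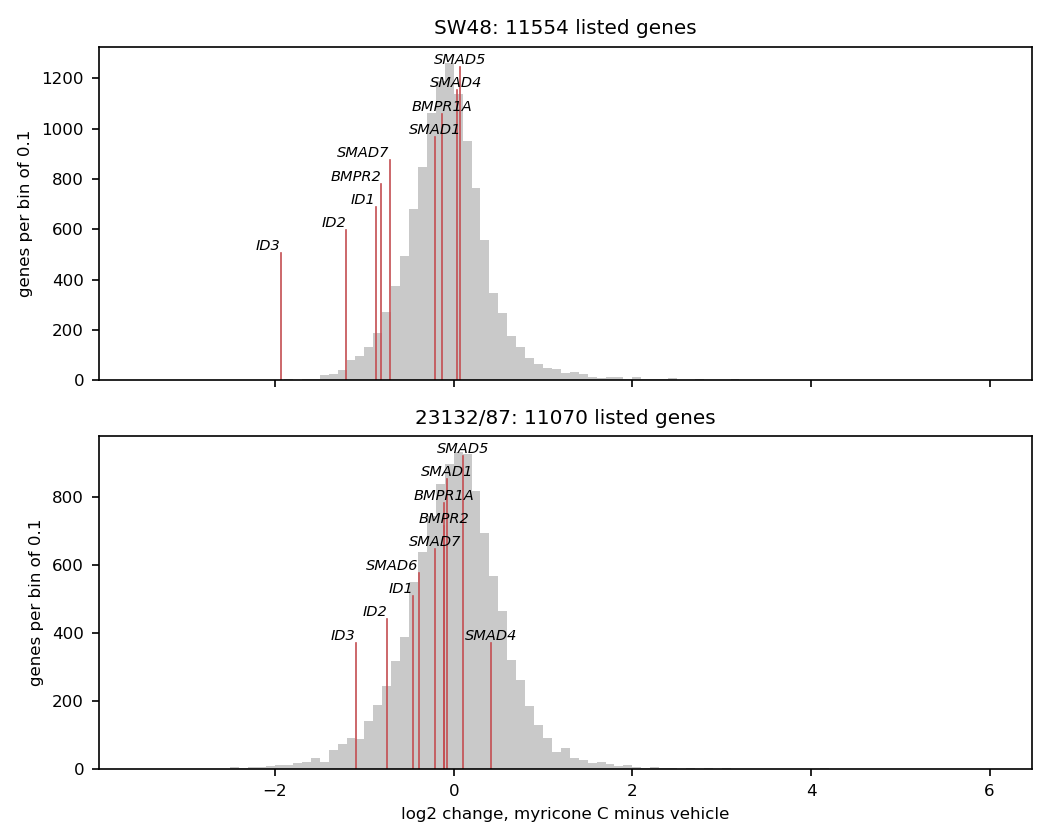
Histograms of the log2 change, myricone C minus vehicle, over all listed genes (genes per bin of 0.1) in SW48 (11554 genes, top) and 23132/87 (11070 genes, bottom), with vertical lines at the members; line heights only separate the labels. ID3 is the lowest member in both panels, at −1.94 and −1.10.

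The changes in SW48 minus those in 23132/87 were below 0 for all 9 members measured in both lines in the values as deposited. ID3 had −0.84 ± 0.52 (SE), BMPR2 −0.70 ± 0.26, SMAD7 −0.51 ± 0.15, ID2 −0.46 ± 0.34, ID1 −0.42 ± 0.37, SMAD4 −0.39 ± 0.20 and SMAD1 −0.14 ± 0.17. The differences of SMAD5 (−0.03 ± 0.19) and BMPR1A (−0.03 ± 0.15) were above 0 under quantile normalisation (0.02 and 0.10) and median-centred scaling (0.05 and 0.06). The median difference over all 10264 shared genes was also below 0, at −0.09. Of the 9 members, 1 (SMAD7) lay past the threshold of the line-by-treatment term, a count that is not read as a test, where 12.7% of all shared genes did, 5.33% higher and 7.39% lower (547 and 759 genes as deposited, or 711 and 533 under median-centred scaling). SMAD7 was not past it in 10 of 12 fits that left out 1 library and in 4 of 7 other settings. ID3, with the largest difference, had the largest error, and both of its SW48 groups were wide.

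Under vehicle the lines had different levels of several members, as far as tables normalised separately allow. SW48 CON averaged 27.4 ± 2.31 for SMAD7, against 6.40 ± 0.499 in 23132/87 CON, and 143 ± 18.4 for ID2, against 69.0 ± 17.2. The opposite order held for ID1 (67.7 ± 21.6 in SW48 CON and 278 ± 49.6 in 23132/87 CON) and for ID3 (98.9 ± 50.7 and 210.0 ± 11.7). In each of these genes every library of one line was above every library of the other. After treatment, ID1 and ID3 kept this order (ID1 35.9 ± 9.00 in SW48 MyrC and 209.7 ± 68.8 in 23132/87 MyrC). These levels were not tested, since a scale shared by the tables is not given in the sources used here.

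A further 121 genes of the pathway and its TGF-β sister branch were grouped into 9 lists by role. SW48 listed 68 of them, of which 6 rose and 12 fell (26.5% called, with 29.3% over all genes), or 9 and 11 after quantile normalisation. In 23132/87, 58 were listed, of which 9 rose and 11 fell (34.5% called, with 46.5% over all genes). Neither share was above that of all genes. Their median log2 change was −0.05 in SW48 and 0.10 in 23132/87.

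Among ligands, SW48 listed 8 of 23, with 1 higher and 2 lower, and 23132/87 listed 3, with 2 lower. Over all genes 29.3% were called in SW48 and 46.5% in 23132/87, and nothing particular to so few ligands is read from their counts. BMP7, a BMP ligand, had 9.94, 7.57 and 8.71 in SW48 MyrC and 18.3, 19.8 and 16.2 in SW48 CON, and fell by 0.97 ± 0.14 on the log2 scale (limma adjusted p = 0.000662). INHA, the inhibin alpha subunit, fell by 0.55 in SW48 (adjusted p = 0.0138), and TGFB2 rose by 0.62 (adjusted p = 0.00690). BMP4, which signals through BMPR1A, had 13.0, 16.1 and 20.0 in 23132/87 MyrC and 30.9, 43.0 and 36.1 in 23132/87 CON, and fell by 1.13 ± 0.16 (adjusted p = 0.000435). Its SW48 values were far higher and did not pass: 530, 456 and 408 in MyrC and 480, 348 and 476 in CON (0.10 ± 0.15, adjusted p = 0.636). BMP8B had 1.20, 1.31 and 1.11 in 23132/87 MyrC and 1.94, 2.61 and 2.31 in 23132/87 CON, and fell by 0.57 (adjusted p = 0.00676). Its MyrC values lay near 1, at or under which no value is listed. INHA did not pass without replicate 2 of SW48 MyrC or replicate 3 of SW48 CON (adjusted p 0.0538 and 0.0680).

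Among 16 receptors and co-receptors, 2 rose and 1 fell in each line, of 10 listed in SW48 and 6 in 23132/87. The share called was 30% in SW48 (29.3% over all genes) and 50% in 23132/87 (46.5% over all genes). RGMB, a BMP co-receptor, rose in both lines, from low vehicle values that in SW48 lay near 1, at or under which no value is listed. It had 2.02, 2.20 and 2.85 in SW48 MyrC and 1.10, 1.15 and 1.40 in SW48 CON (0.59 ± 0.16, adjusted p = 0.0159), and 3.94, 4.78 and 3.53 in 23132/87 MyrC and 1.79, 1.38 and 1.73 in 23132/87 CON (0.95 ± 0.14, adjusted p = 0.000549). ENG, endoglin, had 7.16, 5.19 and 5.86 in SW48 MyrC and 11.1, 10.9 and 10.3 in SW48 CON, and fell by 0.75 ± 0.14 (adjusted p = 0.00296). TGFBR2, the TGF-β type II receptor, rose by 0.40 in SW48 (adjusted p = 0.0428). In 23132/87 ACVR1, a BMP type I receptor, rose by 0.45 (adjusted p = 0.0142) and ACVR1B, an activin type I receptor, fell by 0.46 (adjusted p = 0.0242); ACVR1 in SW48 had 0.25 (adjusted p = 0.194). Leaving out 1 library ended the calls of RGMB in SW48 (without MyrC 3 or CON 1, adjusted p up to 0.0654), TGFBR2 (without MyrC 2, MyrC 3, CON 2 or CON 3, up to 0.137), ACVR1 (without CON 1, 0.0537) and ACVR1B (without MyrC 1, CON 1 or CON 2, up to 0.0765).

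Of 17 antagonists, each line listed BAMBI, FSTL3, NBL1 and TWSG1. TWSG1, which binds BMPs outside the cell, fell in both lines: it had 7.36, 6.52 and 5.14 in SW48 MyrC and 9.27, 16.8 and 14.4 in SW48 CON (−0.96 ± 0.20, adjusted p = 0.00515), and 5.22, 4.04 and 5.19 in 23132/87 MyrC and 10.7, 10.2 and 10.9 in 23132/87 CON (−0.999 ± 0.13, adjusted p = 0.000211). NBL1, a secreted BMP antagonist, fell by 0.80 in SW48 (adjusted p = 0.00146). BAMBI, a pseudoreceptor that is itself a SMAD target, moved in opposite directions. It had 328, 348 and 302 in SW48 MyrC and 451, 492 and 452 in SW48 CON (−0.51 ± 0.11, adjusted p = 0.00453). In 23132/87 it had 27.5, 42.6 and 45.1 in MyrC and 20.3, 23.9 and 17.1 in CON (0.86 ± 0.18, adjusted p = 0.00407). The difference between the lines, SW48 minus 23132/87, was −1.37 ± 0.22 (adjusted p = 0.00172).

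With all libraries, none of the other SMADs and their anchors passed in either line, of 6 listed in SW48 and 4 in 23132/87 (at an unadjusted p under 0.05, 2 in SW48 and 1 in 23132/87). Over all genes 29.3% passed in SW48 and 46.5% in 23132/87. SMAD9, the remaining BMP receptor substrate, was listed only in SW48, at 2.60, 2.39 and 2.61 in MyrC and 2.88, 4.10 and 3.67 in CON (−0.36 ± 0.15, adjusted p = 0.102). These groups did not overlap, as was so for 45.3% of all SW48 genes. SMAD2, a TGF-β receptor substrate, had log2 changes of 0.17 in SW48 (adjusted p = 0.310) and −0.00 in 23132/87 (adjusted p = 0.995). SMAD3, its partner, had −0.02 (adjusted p = 0.952) in SW48 and 0.37 (adjusted p = 0.0582, and 0.0370 without MyrC 3) in 23132/87. Its 23132/87 groups, 8.45 to 12.0 in MyrC and 6.82 to 8.09 in CON, did not overlap, as for 56.8% of all genes there. The listed coactivators CREBBP and EP300 and the kinase MAP3K7 with its partners TAB1 and TAB2 did not pass in either line.

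Of 22 regulators of SMADs, all listed in both lines, 2 rose and 2 fell in SW48, and 3 rose and 4 fell in 23132/87. The share called was 18.2% in SW48 (29.3% over all genes) and 31.8% in 23132/87 (46.5% over all genes). TOB1, an antiproliferative protein that represses BMP SMADs in mouse osteoblasts, had 23.4, 24.1 and 21.8 in 23132/87 MyrC and 49.6, 49.7 and 41.9 in 23132/87 CON, and fell by 0.99 ± 0.10 (adjusted p = 6.64e-05). In SW48 it had 0.32 ± 0.15 (adjusted p = 0.125). CTDSPL, a SMAD phosphatase, fell in both lines, by 0.64 in SW48 (adjusted p = 0.0118) and 0.89 in 23132/87 (adjusted p = 0.00172). FKBP1A, which keeps type I receptors inactive, fell by 0.74 in SW48 (adjusted p = 0.00208), and TGIF1, a corepressor, rose by 0.60 there (adjusted p = 0.00798). SMURF1, a ubiquitin ligase for BMP SMADs, rose by 0.51 in 23132/87 (adjusted p = 0.00732).

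The list of other BMP target genes had 3 of 4 lower in SW48, where 19.2% of all genes were called lower, and 2 of 5 lower in 23132/87, where 23.2% were, with 0 higher in either line. Nothing particular to the list is read from so few genes. MSX2, a homeobox gene induced by BMPs, fell in both lines. It had 31.2, 26.2 and 21.8 in SW48 MyrC and 57.6, 59.4 and 50.3 in SW48 CON (−1.06 ± 0.14, adjusted p = 0.000451). In 23132/87 it had 3.61, 4.14 and 3.29 in MyrC and 4.75, 6.50 and 5.23 in CON (−0.47 ± 0.14, adjusted p = 0.0229). MSX1, its paralogue, had 3.63, 2.55 and 4.51 in SW48 MyrC and 8.58, 11.7 and 6.61 in SW48 CON (−1.12 ± 0.21, adjusted p = 0.00286). RUNX2, an osteoblast regulator, fell by 0.46 in SW48 (adjusted p = 0.0305), and GATA3 fell by 0.83 in 23132/87 (adjusted p = 0.00164). ID4, the fourth ID gene, was listed only in 23132/87, at 4.17, 5.04 and 5.28 in MyrC and 4.87, 5.26 and 6.09 in CON (−0.14 ± 0.14, adjusted p = 0.439), so its groups overlapped, unlike those of ID2 and ID3. MSX2 in 23132/87 did not pass without MyrC 3 or CON 2 (adjusted p 0.0750 and 0.0999), nor RUNX2 without any of MyrC 1, MyrC 3, CON 1 and CON 2 (up to 0.101) or under quantile normalisation (0.0870) or median-centred scaling (0.0535).

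Of the TGF-β targets, 1 rose and 1 fell of 6 listed in SW48, where 29.3% of all genes were called. In 23132/87, 2 rose and 0 fell of 6, where 46.5% of all genes were called. Their median log2 change was 0.31 in SW48 and 0.29 in 23132/87. No direction of the list is read from so few genes. BHLHE40, a stress-responsive bHLH repressor, had 16.2, 34.0 and 31.8 in SW48 MyrC and 4.19, 3.85 and 3.42 in SW48 CON (2.49 ± 0.23, adjusted p = 8.83e-05). The lowest MyrC value was that of replicate 1. It also rose in 23132/87, by 0.45 (adjusted p = 0.00804). CDKN2B, which encodes the cyclin-dependent kinase inhibitor p15, rose by 1.20 in 23132/87 (adjusted p = 0.000405). LTBP2, a matrix protein, had 1.54, 1.05 and 1.37 in SW48 MyrC and 2.28, 2.56 and 1.99 in SW48 CON. It fell by 0.50 (adjusted p = 0.0323), with MyrC values near 1, at or under which no value is listed. The call was lost in 5 of 6 fits without 1 library (all but that without MyrC 1, adjusted p up to 0.126).

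The bHLH partners that ID proteins bind were TCF3 and TCF12, while TCF4 was listed in neither line. In 23132/87 they moved in opposite directions. TCF12 had 27.0, 24.3 and 22.1 in 23132/87 MyrC and 11.4, 14.9 and 16.8 in 23132/87 CON (0.74 ± 0.15, adjusted p = 0.00245). TCF3, which encodes E12 and E47, had 12.8, 15.5 and 13.9 in 23132/87 MyrC and 24.1, 25.7 and 18.7 in 23132/87 CON (−0.65 ± 0.14, adjusted p = 0.00350). In SW48 neither passed, with 0.20 ± 0.14 for TCF12 (adjusted p = 0.295) and −0.33 ± 0.15 for TCF3 (adjusted p = 0.120; 0.0476 without MyrC 3).

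**Figure D4:**
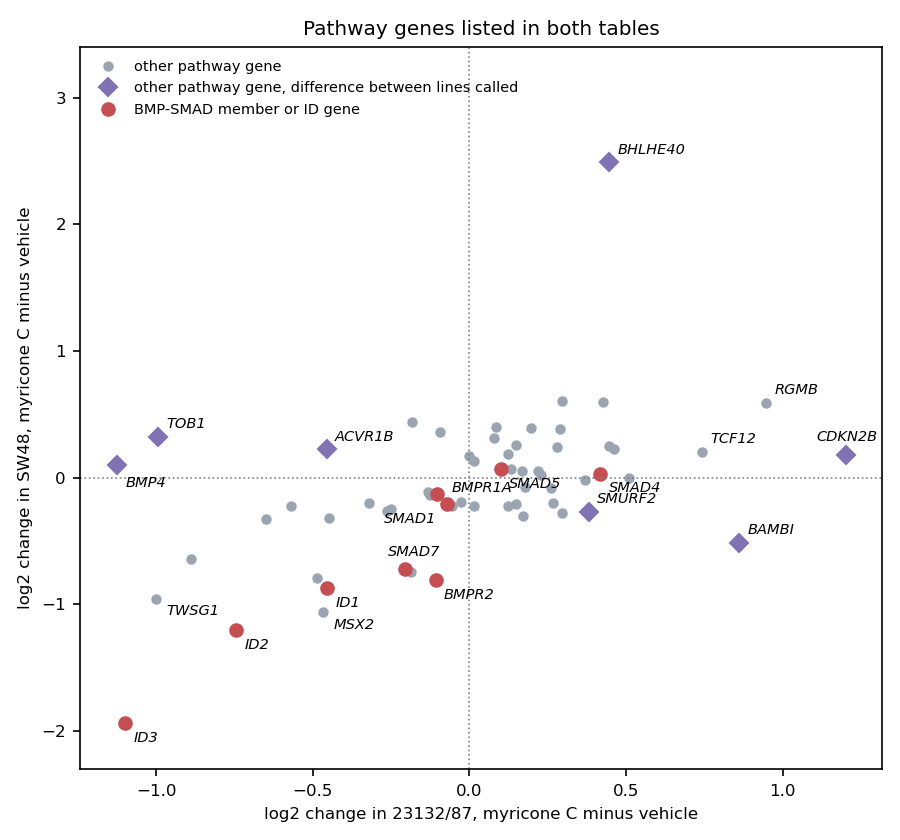
Log2 change, myricone C minus vehicle, in SW48 (vertical axis) against 23132/87 (horizontal axis) for the members and the 53 other pathway genes listed in both tables; diamonds are the 7 whose change differed between the lines at an adjusted p under 0.05. ID1, ID2 and ID3 lie in the lower left, where both changes are negative, BAMBI at lower right and BHLHE40 at the top.

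Of the 53 listed pathway genes measured in both lines, 7 had a line-by-treatment term past the threshold (13.2%, with 12.7% over all genes), 4 higher and 3 lower in SW48 relative to 23132/87. They were BHLHE40, TOB1, BMP4, ACVR1B, BAMBI, CDKN2B and SMURF2, a ubiquitin ligase of SMADs and their receptors. SMURF2 passed in neither line alone, with −0.27 ± 0.13 in SW48 (adjusted p = 0.128) and 0.38 ± 0.14 in 23132/87 (adjusted p = 0.0509).

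The genes whose library-by-library pattern was most like a member's were found by the root mean square difference of log2 values, each taken relative to the CON mean of its line, over 12 libraries and 5583 genes with a mean of at least 10. For ID1 they were TP53I11 (0.17), MZT2B (0.20) and TSPAN15 (0.21). For ID2 they were PET100 (0.16), AP2S1 (0.18) and MRPL27 (0.18), and for ID3 CARHSP1 (0.45), DUT (0.46) and HMGN3 (0.46). By this distance the ID genes were not each other's nearest. ID2 and ID1 ranked 30 and 259 around ID3, ID1 and ID3 ranked 358 and 1276 around ID2, and ID2 and ID3 ranked 598 and 4264 around ID1. The distance also counts the size of a change, which differed among the ID genes, although all of them had negative log2 changes in both lines. For SMAD7 the nearest were RPL26L1 (0.10), SAE1 (0.11) and GLTP (0.12), over 5584 genes. For SMAD6, over 6 libraries and 6534 genes, they were CCDC124 (0.02), MAP3K11 (0.04) and PLOD3 (0.04). The smaller distances of SMAD6 go with fewer libraries, a smaller change and a low signal, at which the pseudocount shrinks log2 changes. The genes compared with it had a mean of at least 10.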

How the data were processed

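Messenger RNA of 12 libraries was measured by sequencing. Per the labels' protocols, libraries came from 3 biological replicates per condition and a stranded mRNA kit; FastQC, STAR and the GRCh38 build appear, without versions, among the submitters' processing notes. Which tool counted reads, with which strand setting and annotation, and how values were normalised is not stated there. The authors deposited 1 table per line holding a linear normalised expression signal for each gene and library. The values are not whole reads, so the edgeR test planned for counts did not apply, and without known depth no interval for counting error could be computed. The SW48 treated columns are numbered differently from the sample titles and were assigned through the column names that the labels quote.

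Log2 of the value plus 1 was fitted with limma 3.58.1 (R 4.3.3, mean-variance trend, mean of at least 1, Benjamini-Hochberg over all genes of the fit), each line on its own 6 libraries, and the line-by-treatment term on all 12 over 10264 shared genes. The p-values measure the spread between libraries labelled as biological replicates. The members, lists and tests were chosen with earlier results of these data known. All members were described. Of each other list, up to 3 genes per line with the largest change past the threshold were named, with the remaining SMADs, ACVR1, ID4, the E proteins and every gene past the threshold for the difference. Promoters are from RefSeq, which matched all 10 members, with 16 windows. In simulated data 200 genes were changed in each line, or in SW48 only for the difference. The fits recovered 72.3% (SW48), 83.3% (23132/87) and 84.8% (the difference) of genes changed by 1 log2 unit. Of those changed by 0.5 they recovered 22.1%, 39.7% and 8.82%, over 11552, 11067 and 10264 genes. Unchanged genes made up 3.82%, 2.67% and 6.77% of the calls. The data had 3383, 5153 and 1306 calls, so these rates need not carry over to them. Alternatives were quantile normalisation, median-centred scaling, pseudocounts of 0.1 and 5, no filter, at least 10 in at least 3 libraries, no trend, a replicate block and leaving out each library.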

Additional observations from a re-analysis of the deposited data

Results flagged for a closer look

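The response to myricone C differed between the lines, by the line-by-treatment term of limma over all 10264 shared genes, for 7 genes of the pathway outside the members. Each value below is the log2 change in SW48 minus that in 23132/87 ± SE. BHLHE40 had 2.05 ± 0.28 (adjusted p = 0.000607): it rose in both lines, by 2.49 in SW48 and by 0.45 in 23132/87, and was higher in all 6 treated libraries than in any vehicle library of the same line. TOB1 had 1.32 ± 0.18 (adjusted p = 0.000607), with 0.32 in SW48 and −0.99 in 23132/87. BMP4 had 1.23 ± 0.24 (adjusted p = 0.00448), with 0.10 in SW48 and −1.13 in 23132/87. ACVR1B had 0.68 ± 0.18 (adjusted p = 0.0248), with 0.22 in SW48 and −0.46 in 23132/87. BAMBI had −1.37 ± 0.22 (adjusted p = 0.00172), falling in SW48 and rising in 23132/87. CDKN2B had −1.02 ± 0.22 (adjusted p = 0.00860), with 0.18 in SW48 and 1.20 in 23132/87. SMURF2 had −0.65 ± 0.18 (adjusted p = 0.0257), with −0.27 in SW48 and 0.38 in 23132/87. The calls of ACVR1B and SMURF2 were lost in 4 and 7 of 12 fits that left out 1 library (adjusted p 0.0561 to 0.0591 and 0.0516 to 0.0667), both were lost with the replicate block (0.0751 for ACVR1B and 0.0868 for SMURF2), and that of SMURF2 also under quantile normalisation (0.0637). No explanation of these differences was tested.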

How the results depend on the processing

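The number of members past the threshold for the difference between the lines, 1 as reported, was 0 under quantile normalisation, median-centred scaling, a pseudocount of 0.1, the replicate block and the filter of at least 10 in at least 3 libraries, and 0 to 1 when 1 library was left out (limma; at an unadjusted p under 0.05 there were 2 as reported and in each of these settings but the filter, which gave 0, and 1 to 4 in the leave-outs). Members called ranged from 4 to 5 in SW48 and from 1 to 3 in 23132/87 when 1 library was left out. Over all genes, calls ranged from 2199 to 3656 in SW48 (3383 as reported, 2199 without MyrC 2), from 3959 to 4888 in 23132/87 (5153 as reported) and from 830 to 1412 for the difference (1306 as reported, 830 without SW48 CON 2). The difference gave 812 calls under the stricter filter, which tests fewer genes, and 770 under the replicate block. Other pathway genes called for the difference were 4 under the stricter filter (7 as reported) and 5 to 8 in the leave-outs; in the lines they were 14 to 20 in SW48 and 17 to 24 in 23132/87. The cause of these shifts was not tested. No result changed sign past its threshold. Of 54 results on other pathway genes, the side of the threshold was kept in 360 of 396 leave-outs and 405 of 412 other settings.

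The labels do not say that libraries with the same number are paired. Deviations of MyrC and CON libraries with the same title number correlated at −0.07, −0.18 and −0.14 in SW48 and −0.24, 0.11 and −0.27 in 23132/87. For other pairs of title numbers the correlations were −0.10 to 0.27 in SW48 and −0.21 to 0.36 in 23132/87. Column numbers of SW48 MyrC differ from its title numbers. By column number, SW48 MyrC 1 and 2 go with CON 2 and 3, at 0.15 and 0.27. Whether libraries were paired was not tested. With the replicate block by title number, members called were 5 in SW48 and 3 in 23132/87, the same counts as without it. Over all genes the block gave 2811 calls in SW48 (3383 without it) and 4449 in 23132/87 (5153 without it). The calls of TGFBR2 and LTBP2 in SW48 and of ACVR1B and SMURF2 for the difference were lost with it. Depth is unknown, and genes with low signal, such as SMAD6, have log2 changes that the pseudocount shrinks.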
